A study of Mus musculus with 4 samples.

Results

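The genes described here encode the kinetochore, the spindle checkpoint and the anaphase-promoting complex or cyclosome (APC/C), the machinery that attaches chromosomes to the spindle and then lets them separate. The rule that picks them reads gene names and no measured value, although it was set with earlier results of these data known. The name rule found 56 genes among the 24411 that each table lists. Kinetochore proteins assemble on centromeric chromatin, the inner ones on nucleosomes that hold the histone variant CENP-A and the outer ones against microtubules. Unattached kinetochores activate checkpoint proteins that hold CDC20, a coactivator of the APC/C, inactive. Once all chromosomes are attached, the APC/C ubiquitinates securin and cyclin B, and separase then cuts cohesin. In spermatocytes this machinery is used at the meiotic divisions, which follow the long prophase from which the cells studied here were taken.

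GFP-positive male germ cells were sorted from testes at postnatal day 18, and their polyadenylated RNA was sequenced in 2 heterozygous controls (*Zfp541*+/-) and in 2 samples that carry the label *Zfp541* KO. Every sample carried a knock-in allele called *Rec8*-3xFLAG-HA-p2A-GFP, in which the *Rec8* locus drives GFP. The sort was thus aimed at cells that make the meiotic cohesin REC8. Of the control testes, 1 was heterozygous and 1 homozygous for the knock-in, and both testes labelled *Zfp541* KO were homozygous. The labels do not say which control was which, so knock-in dosage and *Zfp541* genotype cannot be fully told apart. The labels give a C57BL/6 and CBA mixed strain, whereas the methods describe C57BL/6 mice, and the knockout allele is a Cas9-made deletion that takes out a run of *Zfp541* exons from the first onward. The sort enriched for cells in meiotic prophase, and by the study's description H1t-positive pachytene spermatocytes were only a part of them.

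Before the members, the labels and the libraries were checked. *Zfp541* itself was at 112 and 72.2 TPM (a read-based level scaled for transcript length and to a fixed total per library) in controls 1 and 2, against 136 and 151 TPM in the samples labelled KO 1 and KO 2. The targeted gene was therefore not lower in the labelled-KO libraries, and every direction below rests on the labels. Gene-level TPM does not show whether those reads lie in the deleted exons. The synaptonemal complex gene *Sycp3* had control levels of 1108 and 1263 TPM and labelled-KO levels of 2093 and 2196 TPM, so the meiotic identity of the sorted cells was visible in all 4. *Hist1h1t*, which encodes H1t, lay between 1.00 and 2.55 TPM in the 4 libraries. That is a level in polyadenylated RNA, and it does not give the share of H1t-positive cells. *Rec8* was at 7.05 TPM in control 1 and at 27.9 TPM in control 2, against 27.7 and 19.4 TPM in the labelled-KO libraries. The controls also differed from each other in non-germ cell transcripts, since the summed TPM of 6 Leydig cell markers was 2910 in control 1 and 18.0 in control 2, against 331 and 504 in the labelled-KO libraries. Likewise 6 macrophage and blood markers summed to 478 TPM in control 1, 21.4 in control 2, and 399 and 543 in the labelled-KO libraries. Of the sum in labelled KO 2, 244 TPM came from the globin gene *Hba-a2*, at 0 in the other libraries. The macrophage genes *Cd68*, *Adgre1* and *Csf1r* were each lower in labelled KO 2 than in labelled KO 1. *Csf1r* was at 209 and 1.12 TPM in the controls, against 196 and 140 TPM. In bulk RNA such as this, a change in the share of a cell type and a change in RNA per cell cannot be told apart.

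All 56 genes were detected in all 4 libraries and all passed the filter of a mean of at least 1 TPM. Their mean level ran from 8.67 TPM for *Cenpi* to 391 TPM for *Anapc13*. Together they made up 4543 and 5519 TPM for the controls against 5346 and 5479 TPM in the labelled-KO libraries. The pair of labelled-KO libraries lay close together, with a median difference of 0.085 in log2(TPM + 1), whereas the controls differed by a median of 0.48. Over all genes tested these medians were larger, at 0.16 and 0.65. The plot of TPM by library shows the values of each of the 56 genes.

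**Figure D1:**
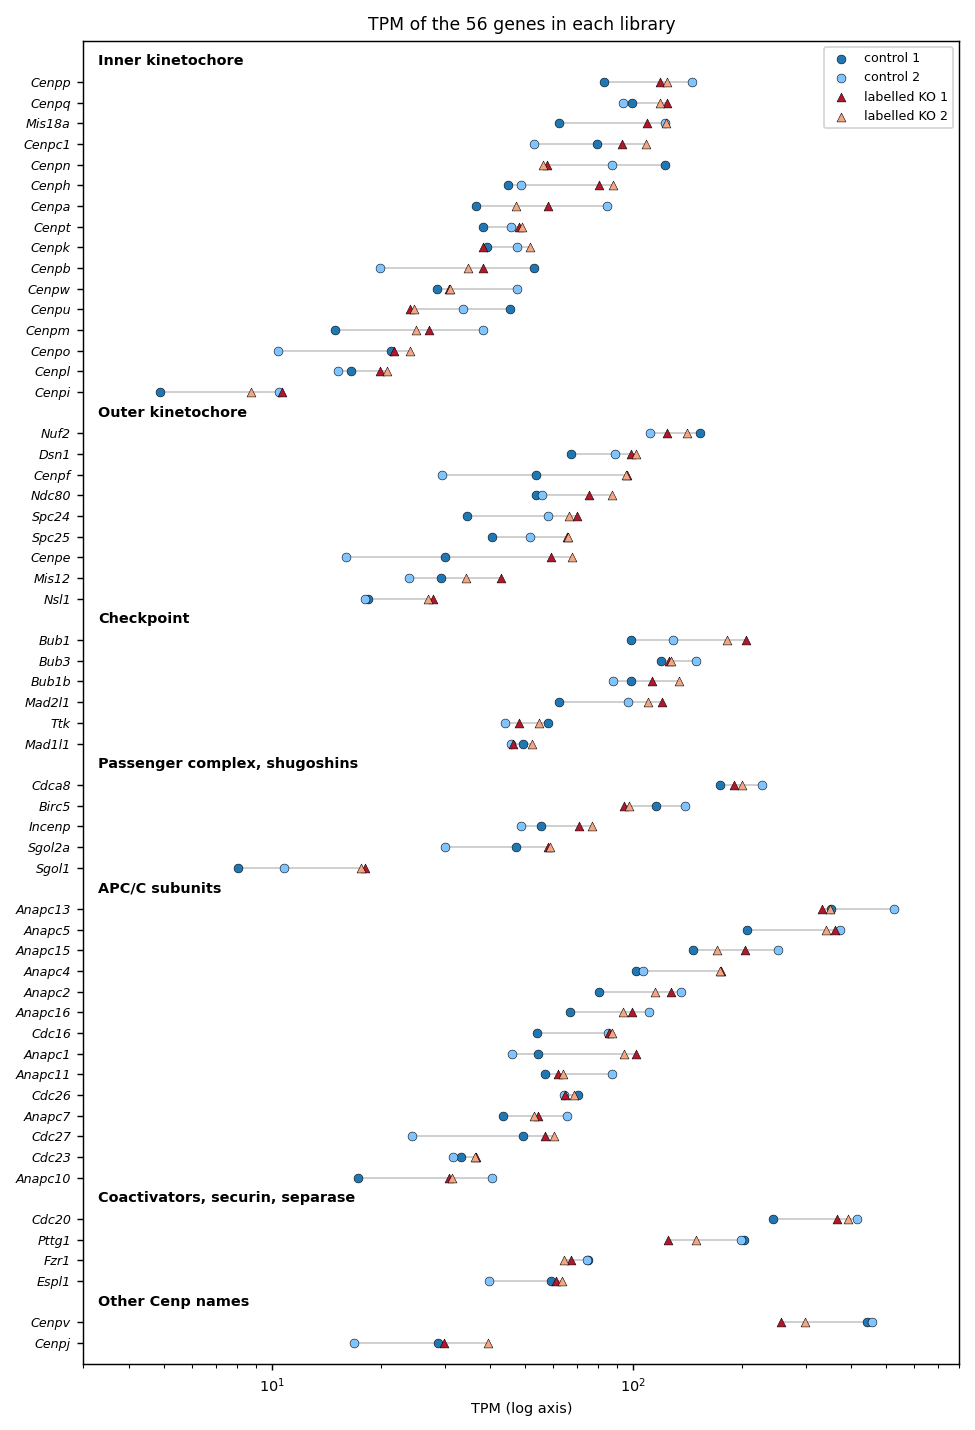
TPM on a log axis for each of the 56 genes, grouped by role, with circles for the 2 control libraries, triangles for the 2 libraries labelled KO and a grey line over the range of the 4. The triangles lie next to each other for most genes, while the circles are often far apart, as for *Cenpa* at 36.7 and 84.5 TPM.

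Groups were compared on log2(TPM + 1) with limma over all 14512 genes that passed the filter, with Benjamini-Hochberg adjustment. None of the 56 genes passed an FDR of 0.05, and the background was the same, at 0% of genes tested. The smallest adjusted p from limma among them was 0.310. At an unadjusted p under 0.05 from limma, 7 members were higher and 3 lower in the labelled-KO libraries, against 10.7% and 3.73% of all genes tested. With 2 samples against 2, an exact two-sided permutation test cannot give a p under 0.333. In 27 members both labelled-KO values were above both controls, in 7 they were below both, and in 22 the groups overlapped. Over all genes tested, 38.6% were higher and 12.1% lower in this sense. The median log2 fold change of the members was 0.29, and the median over all genes tested was 0.28. With both controls the members thus lay where the average gene lay, but this depended on the control. Without control 1 the median was 0.13 for the members and 0.44 for all genes, and without control 2 it was 0.34 for the members and 0.15 for all genes.

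Calls appeared when either control was left out, across all genes and not in the members alone. Without control 1, limma called 18 members higher and 9 lower at an FDR of 0.05, against 38.7% and 9.47% of all genes tested. Without control 2 it called 20 members higher and 3 lower, against 15.5% and 12.9%. In those fits the lone control is assumed to vary as little as the labelled-KO pair does. Members called in both fits were *Anapc4*, *Anapc1*, *Sgol1*, *Cenph*, *Cenpf*, *Cenpe* and *Bub1*, all 7 higher, and *Cenpn* and *Cenpv*, both lower. Of all genes tested, 9.92% were called higher and 3.18% lower in both fits. When a labelled-KO library was left out instead, limma called 0 members, with 0 at an unadjusted p under 0.05.

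**Figure D2:**
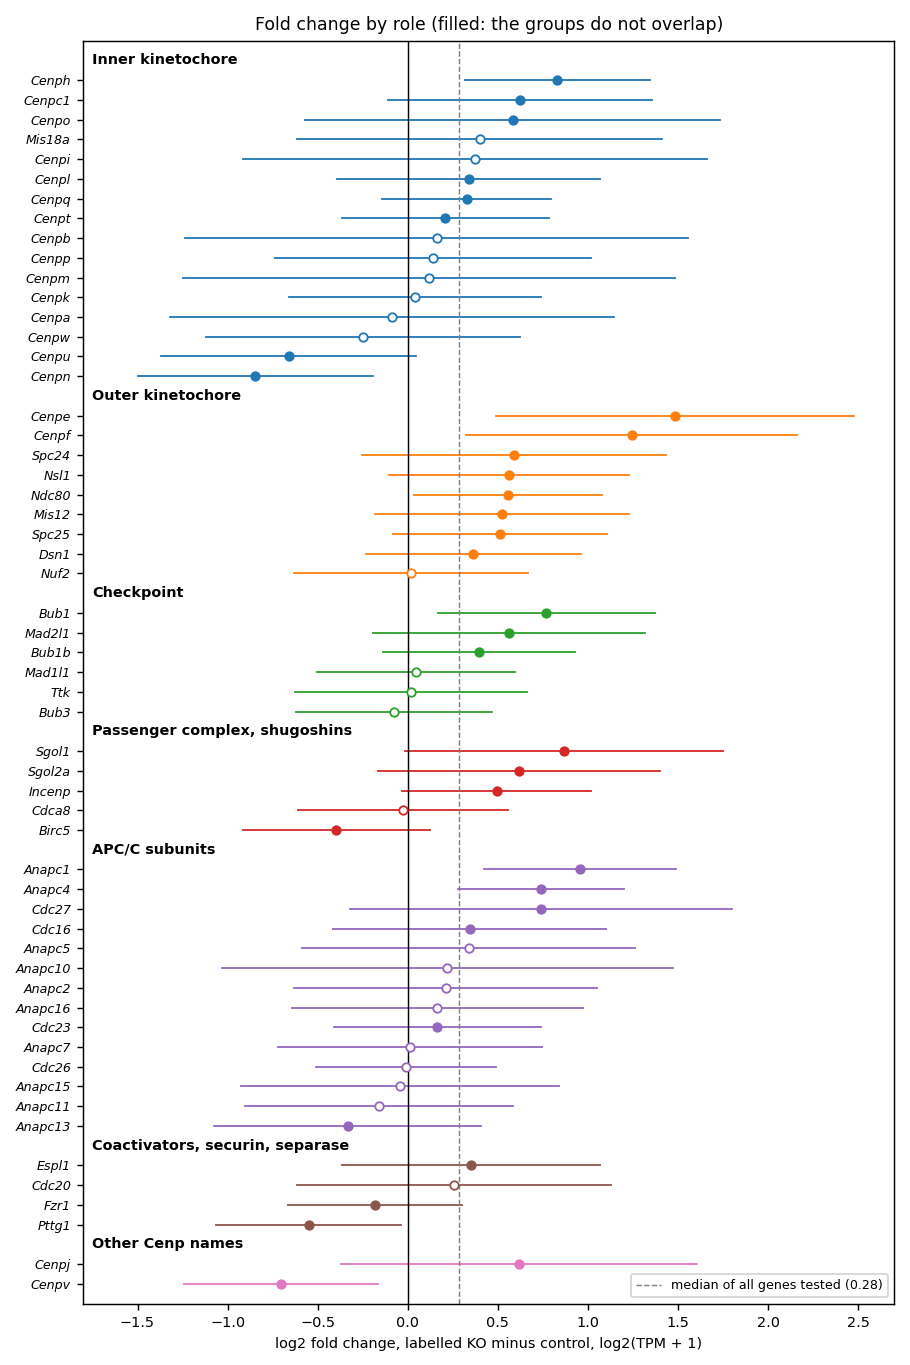
Log2 fold change of log2(TPM + 1), labelled KO minus control, for each of the 56 genes by role, with lines for the 95% interval from limma and filled points where the 2 groups do not overlap. The dashed line is the median of all genes tested at 0.28, and 8 of the 9 outer kinetochore genes are filled points to its right.

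In TPM as deposited, 8 of 9 outer kinetochore genes were higher in both labelled-KO libraries than in both controls and 0 were lower, beside 38.6% and 12.1% of all genes tested. The median log2 fold change was 0.56. Its excess over the median of all genes was 0.27 with both controls, 0.084 without control 1 and 0.43 without control 2. This group holds the NDC80 complex, which grips microtubules, and the large corona proteins CENP-E and CENP-F. It also holds *Mis12*, *Dsn1* and *Nsl1* of the MIS12 complex, which joins the NDC80 complex to the inner kinetochore. *Pmf1*, of the same complex, lies outside the name rule and was chosen for mention after its values were seen. It had control levels of 79.7 and 195 TPM and labelled-KO levels of 122 and 104 TPM, between the controls (log2 fold change -0.15). *Cenpe*, a kinesin that carries chromosomes to the spindle equator, had control levels of 30.1 and 16.0 TPM and labelled-KO levels of 59.1 and 67.6 TPM. This was a 2.79-fold difference (log2 fold change 1.48 ± 0.37 SE, limma adjusted p = 0.310). *Cenpf*, whose protein coats the kinetochore before attachment, had control levels of 53.8 and 29.5 TPM and labelled-KO levels of 95.9 and 95.7 TPM (log2 fold change 1.24 ± 0.34 SE, limma adjusted p = 0.315). These were the only 2 members to be at least 2-fold higher, where 8.98% of all genes tested did so, and 0 members were at least 2-fold lower, where 5.22% did. In both genes control 2 was the lower control.

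Among the microtubule-binding subunits, *Ndc80* had control levels of 53.8 and 56.01 TPM and labelled-KO levels of 75.3 and 87.3 TPM (log2 fold change 0.56 ± 0.19 SE, limma adjusted p = 0.333). Its partner *Nuf2* was the exception of the group, with 153 and 111 TPM in the controls against 124 and 141 TPM in the labelled-KO libraries. The groups overlapped there, with a log2 fold change of 0.018 and a 95% interval from -0.63 to 0.67, and it turned negative under the other scalings. *Nuf2* was nevertheless the most abundant of the 4 NDC80 complex transcripts, at a mean of 132 TPM, against 68.1 for *Ndc80*, 57.1 for *Spc24* and 56.1 for *Spc25*. *Dsn1*, of the MIS12 complex, had control levels of 67.3 and 89.1 TPM and labelled-KO levels of 98.5 and 101 TPM (log2 fold change 0.36). The other 4 genes, *Spc24*, *Spc25*, *Mis12* and *Nsl1*, had log2 fold changes from 0.51 to 0.59. None of them overlapped between the groups.

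The promoters of *Cenpe*, *Cenpf* and *Ndc80*, which were higher in the labelled-KO libraries, and of *Cenpn*, the inner kinetochore gene with the lowest fold change, are shown because genes of this machinery are known to share control elements that act late in the cell cycle. Each runs from 250 bases before to 50 after the RefSeq transcript start in build GRCm38.p6. Capitals mark the cell cycle homology element TTTGAA or TTTAAA and the CCAAT box, on either strand.
*Cenpe* promoter, chr3:135212313-135212612, forward strand: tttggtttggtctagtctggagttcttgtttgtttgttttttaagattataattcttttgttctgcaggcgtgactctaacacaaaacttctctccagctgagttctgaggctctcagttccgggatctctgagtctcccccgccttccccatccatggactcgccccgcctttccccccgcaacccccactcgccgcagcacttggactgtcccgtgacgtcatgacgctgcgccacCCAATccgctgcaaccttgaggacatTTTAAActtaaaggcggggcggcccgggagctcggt
*Cenpf* promoter, chr1:189688037-189688336, reverse strand: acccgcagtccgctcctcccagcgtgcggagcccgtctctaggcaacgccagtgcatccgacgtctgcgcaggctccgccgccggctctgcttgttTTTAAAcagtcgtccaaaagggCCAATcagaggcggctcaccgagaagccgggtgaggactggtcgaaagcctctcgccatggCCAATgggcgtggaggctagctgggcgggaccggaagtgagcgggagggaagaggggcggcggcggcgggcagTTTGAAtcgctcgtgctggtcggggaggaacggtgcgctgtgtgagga
*Ndc80* promoter, chr17:71526808-71527107, reverse strand: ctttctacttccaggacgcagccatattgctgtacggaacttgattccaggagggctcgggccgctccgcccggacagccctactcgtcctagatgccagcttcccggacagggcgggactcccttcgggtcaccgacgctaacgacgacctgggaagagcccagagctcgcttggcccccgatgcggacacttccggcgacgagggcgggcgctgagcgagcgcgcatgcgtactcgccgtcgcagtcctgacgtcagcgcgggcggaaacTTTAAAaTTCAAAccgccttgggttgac
*Cenpn* promoter, chr8:116921490-116921789, forward strand: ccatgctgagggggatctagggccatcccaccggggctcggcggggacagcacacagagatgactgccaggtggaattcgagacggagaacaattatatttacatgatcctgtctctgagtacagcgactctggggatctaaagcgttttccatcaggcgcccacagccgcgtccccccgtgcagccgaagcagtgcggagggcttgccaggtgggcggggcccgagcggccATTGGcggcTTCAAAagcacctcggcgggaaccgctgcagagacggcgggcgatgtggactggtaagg
In these windows *Cenpe* held TTTAAA at 14 bases after the start and CCAAT at 12 bases before it. *Cenpf* held TTTGAA at 2 bases after the start, TTTAAA at 154 before it and CCAAT at 132 and 71 before it. *Ndc80* held both homology elements after the start, TTTAAA from base 22 and the complement of the other element, which reads TTCAAA, from base 29. The promoter of *Cenpn* held the complement of TTTGAA at 9 bases before the start and that of CCAAT at 18 before it. RefSeq windows matched 52 members, and *Cdc23*, *Incenp*, *Nsl1* and *Spc24* had none. Either homology element was found in 4 of 7 outer kinetochore genes and in 19 of 52 members (36.5%), against 30.6% of all genes with a window. The 3 outer kinetochore genes shown are the ones of these 7 with TTTAAA. That element was in 7 of 52 members (13.5%), against 14.9% of all genes. *Dsn1* and *Mis12*, also higher, and *Nuf2*, which overlapped, held neither homology element. A link between these elements and the levels was not tested. CCAAT was found in 29 of 52 members (55.8%) and in 41.1% of all genes.

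In the inner kinetochore 6 of 16 genes were higher and 2 lower without overlap, close to the 38.6% and 12.1% of all genes tested, and the median log2 fold change was 0.18. Median-ratio scaling, which sets a typical gene equal between libraries, turned that median to -0.14. This group holds CENP-A and the centromere-associated network built on it. *Cenpa* had control levels of 36.7 and 84.5 TPM and labelled-KO levels of 58.2 and 47.2 TPM. Both labelled-KO values lay between the controls, with a 95% interval for the log2 fold change from -1.32 to 1.14. *Cenpp* and *Cenpq* were the most abundant of the group. *Cenpp* had control levels of 82.8 and 146 TPM and labelled-KO levels of 118 and 124 TPM, again between the controls. *Cenpq* had control levels of 99.1 and 93.5 TPM and labelled-KO levels of 124 and 118 TPM (log2 fold change 0.33 ± 0.17 SE, limma adjusted p = 0.439), a difference that median-ratio scaling took to -0.0078.

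*Cenpn*, whose protein reads the CENP-A nucleosome, went the other way. It had control levels of 122 and 87.1 TPM and labelled-KO levels of 57.7 and 56.3 TPM (log2 fold change -0.85 ± 0.24 SE, limma adjusted p = 0.316). The gene lies on chromosome 8 of GRCm38, from 116921730 to 116941507 on the forward strand, in GENCODE vM21. *Cenpu* and *Cenph* were chosen for mention after their values were seen. *Cenpu* had control levels of 45.4 and 33.7 TPM and labelled-KO levels of 24.03 and 24.8 TPM (log2 fold change -0.66), and 1069 bases of its exons overlap *Primpol* on the opposite strand. *Cenph* had control levels of 44.8 and 48.9 TPM and labelled-KO levels of 80.4 and 87.7 TPM (log2 fold change 0.83 ± 0.19 SE, limma adjusted p = 0.310). Members of the same network thus differed in opposite directions, each by more than the gap between the controls. The other 10 genes had log2 fold changes from -0.25 to 0.62.

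Of 6 checkpoint genes 3 were higher and 0 lower without overlap, beside 38.6% and 12.1% of all genes tested. Their median log2 fold change was 0.22, which median-ratio scaling turned to -0.11. With that scaling 1 gene was higher and 3 lower without overlap, against 22.6% and 22.8% of all genes tested. Quantile normalization gave 2 and 2, against 27.8% and 19.4%. A correction for transcript length gave 1 and 2, against 22.4% and 21.6%. *Bub1*, a kinase that recruits the checkpoint to kinetochores, had control levels of 98.5 and 129 TPM and labelled-KO levels of 205 and 181 TPM (log2 fold change 0.77 ± 0.22 SE, limma adjusted p = 0.318). *Mad2l1*, the CDC20 inhibitor, had control levels of 62.1 and 96.8 TPM and labelled-KO levels of 120 and 110 TPM (log2 fold change 0.56 ± 0.28 SE, limma adjusted p = 0.418). *Bub1b*, which encodes BUBR1 of the mitotic checkpoint complex, had control levels of 98.6 and 87.9 TPM and labelled-KO levels of 113 and 134 TPM (log2 fold change 0.40). In these genes both labelled-KO values exceeded both control values. *Bub3*, also of that complex, had control levels of 119 and 149 TPM and labelled-KO levels of 125 and 127 TPM. *Ttk*, the kinase that starts checkpoint signalling, had control levels of 58.1 and 44.2 TPM and labelled-KO levels of 48.3 and 54.7 TPM. In TPM as deposited, groups overlapped in *Bub3*, *Ttk* and *Mad1l1*, whose log2 fold changes lay between -0.077 and 0.045. Their 95% intervals reached no further than -0.62 and 0.66. *Ttk* and *Mad1l1* were lower without overlap under each of the other scalings and the length correction, and *Bub3* under median-ratio scaling alone.

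The chromosomal passenger complex corrects faulty attachments, and shugoshins shield centromeric cohesin from separase. Among their 5 genes, 3 were higher and 1 lower without overlap, beside 38.6% and 12.1% of all genes tested. Their median log2 fold change was 0.49. It was 0.16 with median-ratio scaling, 0.28 with quantile normalization, 0.12 with the correction for transcript length and 0.30 without control 2. *Incenp*, the scaffold of the passenger complex, had control levels of 55.4 and 49.0 TPM and labelled-KO levels of 70.9 and 76.9 TPM (log2 fold change 0.49 ± 0.19 SE, limma adjusted p = 0.360). *Birc5*, which encodes survivin of the same complex, had control levels of 116 and 139 TPM and labelled-KO levels of 94.2 and 97.5 TPM (log2 fold change -0.40 ± 0.19 SE, limma adjusted p = 0.410). *Cdca8*, which encodes borealin, had control levels of 174 and 227 TPM and labelled-KO levels of 190 and 200 TPM. Its labelled-KO values lay between the controls, so these 3 among the subunits of the complex had a higher, a lower and an overlapping level.
*Sgol2a*, the shugoshin that protects cohesin in meiosis, had control levels of 47.3 and 30.1 TPM and labelled-KO levels of 57.9 and 58.7 TPM (log2 fold change 0.62 ± 0.29 SE, limma adjusted p = 0.404). *Sgol1* was the least abundant gene of this group, with 8.03 and 10.8 TPM in the controls against 18.0 and 17.6 TPM in the labelled-KO libraries (log2 fold change 0.87 ± 0.33 SE, limma adjusted p = 0.348). Of the *Sgol2a* exons, 2455 bases overlap *Kctd18* on the opposite strand. Its paralogue *Sgol2b* was listed at 0 TPM in 3 libraries and at 0.10 TPM in labelled KO 2.

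APC/C subunit genes were the largest block after the inner kinetochore, and in 8 of 14 the groups overlapped. Another 5 were higher and 1 lower without overlap, where 38.6% and 12.1% of all genes tested were, and the median log2 fold change was 0.19, which median-ratio scaling turned to -0.14. *Anapc1*, the largest scaffold subunit, had control levels of 54.3 and 46.2 TPM and labelled-KO levels of 102 and 94.5 TPM (log2 fold change 0.96 ± 0.20 SE, limma adjusted p = 0.310). *Anapc4*, a platform subunit chosen for mention after its values were seen, had control levels of 102 and 107 TPM and labelled-KO levels of 175 and 174 TPM (log2 fold change 0.74 ± 0.17 SE, limma adjusted p = 0.310). In both scaffold genes the groups lay well apart in TPM as deposited. With a correction for transcript length the groups overlapped in *Anapc1* (log2 fold change 0.23) and not in *Anapc4* (0.34). *Anapc13*, the most abundant of all 56 genes, had control levels of 352 and 527 TPM and labelled-KO levels of 333 and 351 TPM (log2 fold change -0.33). Here control 1 and labelled KO 2 were almost equal, and control 2 stood above the rest. *Anapc5* had control levels of 207 and 374 TPM and labelled-KO levels of 363 and 341 TPM. Log2 fold changes of the remaining 10 genes ran from -0.16 to 0.74.

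Downstream of the checkpoint act the APC/C coactivators, securin and separase. Of their 4 genes 1 was higher and 2 were lower without overlap, beside 38.6% and 12.1% of all genes tested. *Cdc20*, the coactivator used at the divisions, had control levels of 243 and 415 TPM and labelled-KO levels of 366 and 393 TPM. The labelled-KO values lay between the controls, with a 95% interval for the log2 fold change from -0.62 to 1.13. *Fzr1*, which encodes CDH1, the coactivator of interphase and mitotic exit, had control levels of 74.7 and 74.5 TPM and labelled-KO levels of 67.4 and 64.1 TPM (log2 fold change -0.18 ± 0.18 SE, limma adjusted p = 0.652).
*Pttg1*, which encodes securin, had control levels of 202 and 198 TPM and labelled-KO levels of 125 and 149 TPM (log2 fold change -0.55 ± 0.19 SE, limma adjusted p = 0.332). Securin transcript was thus lower in both labelled-KO libraries by more than the gap between the controls. *Espl1*, which encodes separase, had control levels of 59.0 and 40.0 TPM and labelled-KO levels of 61.1 and 63.3 TPM (log2 fold change 0.35, and -0.27 with a correction for transcript length). Control 1 lay just under labelled KO 1, and control 2 well under both.

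The name rule also took in *Cenpv* and *Cenpj*. *Cenpj* encodes a centriole assembly protein and had control levels of 28.8 and 16.9 TPM and labelled-KO levels of 29.8 and 39.7 TPM (log2 fold change 0.62). *Cenpv*, which encodes a microtubule-associated protein, had control levels of 445 and 458 TPM and labelled-KO levels of 256 and 299 TPM (log2 fold change -0.70 ± 0.20 SE, limma adjusted p = 0.315). Its controls differed far less from each other than from the labelled-KO libraries.

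The gap between the controls followed transcript length. Across the 56 genes, Spearman's rho between log2 transcript length and control 2 minus control 1 was -0.51, and over the 14400 genes tested that have a length it was -0.25. Between length and the log2 fold change rho was 0.57 in the members and 0.35 over all genes. It was 0.18 in the members when the labelled-KO libraries were set against control 1 alone and 0.68 against control 2 alone. These are descriptions across genes that share the same 4 libraries, with no test. *Cenpf* at 11130 bases, *Anapc1* at 8942 and *Cenpe* at 7910 were the longest transcripts of the machinery and had its 3 highest fold changes. Against control 1 alone the log2 fold change was 1.04 for *Cenpe*, 0.82 for *Cenpf* and 0.84 for *Anapc1*, and against control 2 alone it was 1.92, 1.66 and 1.07. When each library was corrected for transcript length, it was 0.80, 0.44 and 0.23. *Cenph*, at 1251 bases, was at 0.83 before and 0.80 after the correction. The part of length in these differences was not tested.

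**Figure D3:**
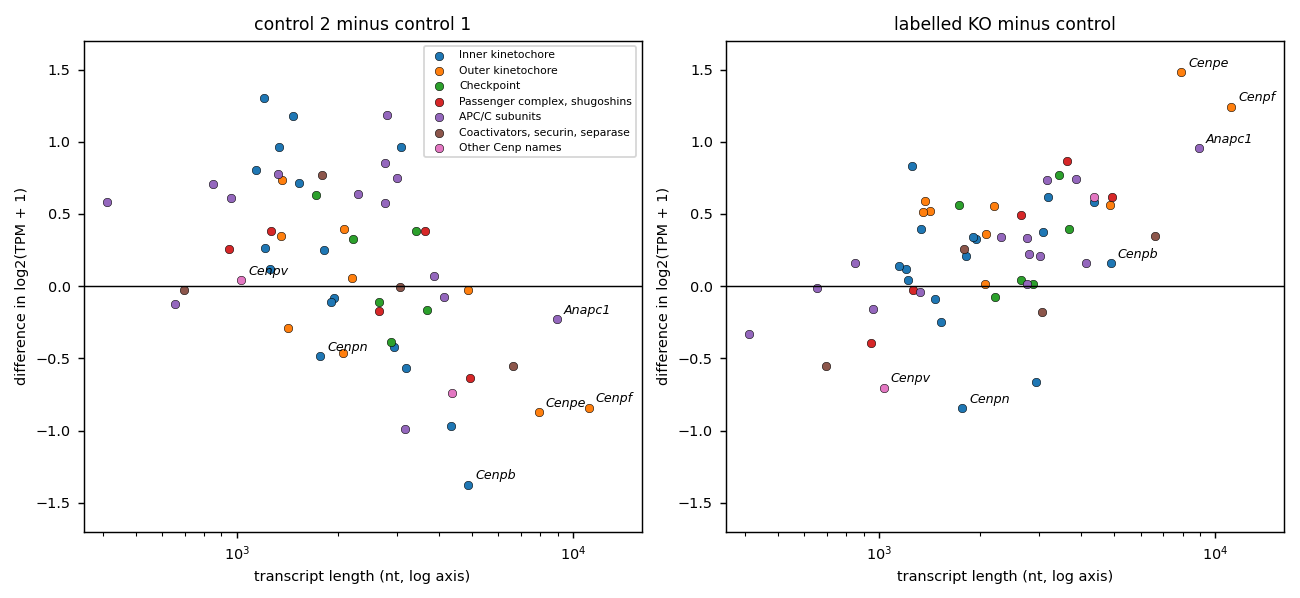
Difference in log2(TPM + 1) against transcript length on a log axis for the 56 genes, coloured by role, for control 2 minus control 1 on the left and labelled KO minus control on the right. Long transcripts were lower in control 2, with a Spearman's rho of -0.51, and higher in the labelled-KO libraries, with a rho of 0.57.

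Median-ratio scaling, quantile normalization and the length correction each lowered the median of every role group, by amounts that differed between groups. Median-ratio scaling took the median of all genes tested from 0.28 to -0.015 and that of the members from 0.29 to -0.044, and members then stood at 13 higher and 14 lower without overlap, against 22.6% and 22.8% of all genes. Quantile normalization gave 17 higher and 9 lower, against 27.8% and 19.4%, and the length correction 16 and 11, against 22.4% and 21.6%. Relative to all genes tested, the outer kinetochore median stood 0.27 higher as deposited, 0.24 with median-ratio scaling, 0.22 with quantile normalization and 0.43 with the length correction, whereas leaving out control 1 took it to 0.084. In that group 4, 5 and 6 of 9 genes were then higher without overlap. The inner kinetochore median stood 0.099 below that of all genes as deposited and 0.072 above it after the length correction.
In TPM as deposited, with both other scalings and with the length correction, 10 members stayed higher without overlap, namely *Anapc4*, *Cdc27*, *Incenp*, *Sgol2a*, *Sgol1*, *Cenpc1*, *Cenph*, *Cenpf*, *Cenpe* and *Mis12*. Another 6 stayed lower, namely *Pttg1*, *Fzr1*, *Birc5*, *Cenpn*, *Cenpu* and *Cenpv*. Both counts were near the background, since 16.5% of all genes tested stayed higher and 11% lower through the same settings.

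**Figure D4:**
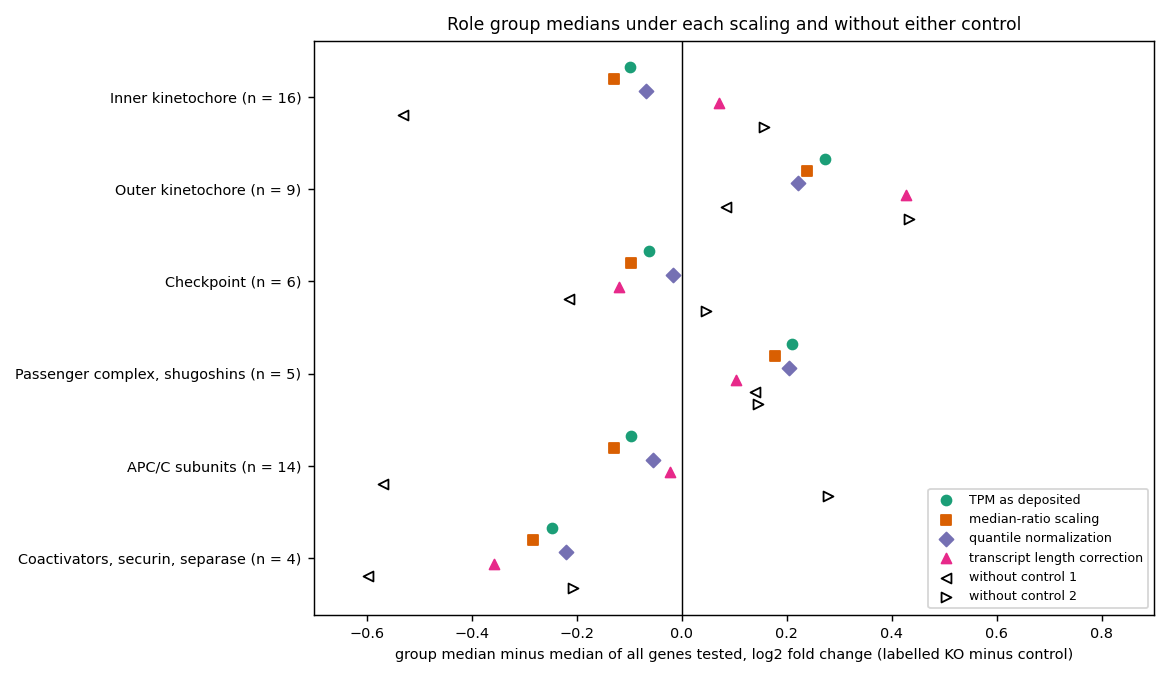
Median log2 fold change of each role group minus the median of all genes tested, as deposited and under 3 other scalings (filled points) and without either control (open points), with the number of genes beside each group. The outer kinetochore lies 0.22 to 0.43 above all genes under the scalings and 0.084 above them without control 1, where the inner kinetochore and the APC/C subunits lie 0.53 and 0.57 below.

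Other genes of the pathway, 35 symbols beyond the name rule, were set beside the members. Of these, 32 were in the tables and 31 passed the filter. In limma 0 passed an FDR of 0.05, while 8 were higher and 1 lower at an unadjusted p under 0.05, beside 10.7% and 3.73% of all genes tested. Without overlap, 16 were higher and 7 lower, beside 38.6% and 12.1%, and the median log2 fold change was 0.21. Of the outer kinetochore genes *Ska1*, *Ska2* and *Ska3*, chosen after their values were seen, *Ska1* was lower (log2 fold change -0.45). *Ska2* and *Ska3* were higher (0.98 and 0.61). *Casc5*, the outer kinetochore scaffold now named *Knl1*, had control levels of 26.1 and 12.7 TPM and labelled-KO levels of 46.0 and 48.8 TPM (log2 fold change 1.33 ± 0.40 SE, limma adjusted p = 0.320). *Gsg2*, which encodes the kinase haspin that places the passenger complex at centromeres, had control levels of 177 and 48.1 TPM and labelled-KO levels of 26.4 and 31.7 TPM (log2 fold change -1.64 ± 0.67 SE, limma adjusted p = 0.366). The controls were 3.67-fold apart in *Gsg2*, so its size depended on which control was used.

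Marker lists of other stages and cells also differed between the libraries, and no marker was at 0 in all 4. Of 8 meiotic prophase markers, 7 were higher in both labelled-KO libraries than in both controls and 0 were lower. Over all genes tested, 38.6% were higher and 12.1% lower in this sense, which is the background for each count below. The summed level of the 8 markers was 3155 and 3564 TPM for the controls against 5815 and 6112 TPM for the labelled-KO libraries. The 8 markers of cycling mitotic cells summed to 794 and 1075 TPM for the controls against 1233 and 1107 TPM in the labelled-KO libraries. Without overlap, 2 of them were higher and 0 lower. The higher ones were *Mki67*, at 43.0 and 30.1 TPM against 75.1 and 68.3, and *Top2a*, at 212 and 232 TPM against 364 and 337. In all others of this list the groups overlapped. Examples are *Mcm5*, at 57.8 and 193 TPM against 155 and 118, and *Pcna*, at 384 and 428 TPM against 418 and 402. The 10 spermatogonial markers summed to 408 and 877 TPM for the controls against 590 and 540 TPM in the labelled-KO libraries, with 2 higher and 0 lower. For the 9 pachytene markers in the tables the sums were 5981 and 2746 TPM against 1747 and 2544 TPM, with 3 lower and 1 higher without overlap, and most of each control sum came from *Ldhc* at 3659 and 1819 TPM. Of 8 leptotene and zygotene markers 5 were higher and 0 lower, with sums of 906 and 1362 TPM against 2036 and 1960 TPM. Most of each sum came from *Hormad1*, at 531 and 728 TPM against 1145 and 1232 TPM. *Hormad1* and *Dmc1* are also in the meiotic prophase list, so the counts of these lists are not separate. The 6 Sertoli cell markers summed to between 643 and 984 TPM in the 4 libraries, with 2 higher and 0 lower. The part of any of these in the levels of the kinetochore, checkpoint and APC/C genes was not tested.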

How the data were processed

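Single-end RNA sequencing of GFP-positive male germ cells gave 4 libraries, grouped by their labels as 2 *Zfp541*+/- and 2 *Zfp541* KO at postnatal day 18. The authors trimmed reads with Trim Galore 0.5.0 and cutadapt 1.16, aligned them to UCSC mm10 with STAR 2.6.0a and estimated gene levels with RSEM 1.3.1, per the labels. They deposited TPM for each gene and library. TPM keeps no depth, so the counting error is unknown, and the strand setting of the counting is not given in the sources used here. Of the 56 members, 15 share exonic bases with another listed gene, 5 of them at least 1000 bases, so reads there may be split.

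Rows whose mean over the 4 libraries reached 1 TPM were kept. Genotype was fitted to log2(TPM + 1) in limma 3.58.1 (R 4.3.3), with the prior variance allowed to follow the mean, two-sided, with Benjamini-Hochberg adjustment over 14512 genes at an FDR of 0.05. Fold changes on this scale understate those of low genes. The fit was tested on simulated data for its arithmetic, at a smaller replicate spread than these controls show, so the test says nothing of power here. The design text speaks of testes and does not say that each came from another animal, so p-values measure only the spread between these samples, which may be technical. For the length correction, a lowess curve of each library's difference from the gene mean on log2 length was subtracted. Transcript lengths were those of the GENCODE vM21 transcript with the longest coding sequence, found for 99.0% of the genes tested. The members, roles and lists were chosen with earlier results of these data known. Per-library values were given for the 2 most abundant genes and the gene with the largest fold change in each role, for members that differed at least 2-fold without overlap, and for a list of 15 regulators. Other genes given in full are named as such.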

Additional observations from a re-analysis of the deposited data

How the results depend on the processing

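Alternatives covered the pseudocount (0.1 and 5), the filter (none and a mean of 5 TPM), median-ratio and quantile scaling, the variance trend, the replicate block, a looser FDR (0.1), and each sample left out. A crossed replicate block and the length correction were chosen after seeing the data. In every fit that kept all 4 samples, 0 members were past the threshold in either direction, with smallest adjusted p among members from 0.175 to 0.629 in limma. With the replicate block 0 members passed, the count of members at an unadjusted p under 0.05 went from 7 higher and 3 lower to 3 and 1, and no call changed. Deviations from the group means correlated at -0.16 between samples of one number, and the labels do not say that a number marks a shared litter. With the numbers crossed as the block, 7 genes of all tested were higher and 80 lower, none of them a member.

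Left out in turn, single samples gave 0 to 20 members past the threshold higher and 0 to 9 lower, 28 to 43 higher and 7 to 21 lower without overlap, 2 to 5 higher by 2-fold or more and 0 to 1 lower by as much. The median over all genes tested ranged from 0.15 to 0.44, that over members from 0.13 to 0.34 and that of the other pathway genes from 0.16 to 0.50. The highest counts came without a control. Without control 1 there were 21 lower without overlap and 5 at least 2-fold higher, against 25% and 24.2% of all genes tested. Without control 2 there were 43 higher, against 52.9%. Across the fits with a sample left out, 42.9% to 65.8% of all genes tested were higher and 15.6% to 36% lower without overlap. At least 2-fold higher were 5.62% to 24.2% of all genes, and 4.23% to 11.4% were lower by as much.

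Median-ratio scaling gave 13 members higher and 14 lower without overlap, 1 higher by 2-fold or more and 2 lower by as much, and turned the median over members to -0.044 and that of the other pathway genes to -0.12. Quantile normalization gave 17 higher, 1 at least 2-fold lower and medians of 0.11 and -0.048. The length correction gave 16 higher, 11 lower, 0 at least 2-fold higher and a median of 0.086. Role medians that turned negative under median-ratio scaling were the coactivators with securin and separase (-0.30), the APC/C subunits (-0.14), the inner kinetochore (-0.14) and the checkpoint (-0.11). The coactivator group was also at -0.14 with quantile normalization and -0.35 with the length correction, the APC/C subunits at -0.0096 and the checkpoint at -0.11 with the length correction. With a sample left out, these medians ranged from -0.15 to 0.045 for the coactivator group, -0.13 to 0.43 for the APC/C subunits and -0.088 to 0.31 for the inner kinetochore.

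Single genes changed sign as well. With median-ratio scaling *Cdc20* was at -0.081, *Ttk* at -0.31, *Cenpp* at -0.19, *Cenpq* at -0.0078 and *Nuf2* at -0.32. *Ttk* was at -0.24 and *Nuf2* at -0.085 with quantile normalization. With the length correction *Ttk* was at -0.28, *Espl1* at -0.27 and *Nuf2* at -0.17. With a sample left out, *Cdc20* ranged from -0.13 to 0.64, *Ttk* ranged from -0.17 to 0.21, *Cdca8* ranged from -0.22 to 0.17, *Cenpa* ranged from -0.68 to 0.50, *Anapc5* ranged from -0.088 to 0.76, *Cenpp* ranged from -0.26 to 0.54, *Nuf2* ranged from -0.21 to 0.25, *Bub3* ranged from -0.24 to 0.085. Why these results changed was not examined beyond the alternatives themselves; the cause was not tested. As depth is unknown, no limit from counting can be given.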

Other observations

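A few other genes of the pathway were chosen for mention after their values were seen, and none passed an FDR of 0.05 in limma. *Aurka*, which acts at spindle poles, had control levels of 123 and 136 TPM and labelled-KO levels of 96.2 and 105.0 TPM. *Aurkc*, the germ cell partner of the passenger complex, had control levels of 20.4 and 14.6 TPM and labelled-KO levels of 11.8 and 12.3 TPM, whereas *Aurkb* overlapped at 21.3 and 17.5 TPM against 19.7 and 18.5. *Meikin*, a meiotic kinetochore regulator, had control levels of 48.7 and 49.0 TPM and labelled-KO levels of 28.7 and 29.7 TPM (adjusted p = 0.315 from limma). Both control values of *Meikin* were nearly equal, and both labelled-KO values lay below them.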
